A study of Arabidopsis thaliana with 9 samples.

Results

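Small RNAs of *Arabidopsis thaliana* Col-0 wild type shoots were compared between plants resupplied with iron for 24 hours (Fe resupply) and plants kept iron deficient (-Fe), which are 6 of the 9 libraries of the series. Both groups grew for 14 days on medium with iron and for 3 days without it. The last 24 hours were then spent on iron (Fe resupply) or on fresh medium without iron (-Fe), with 3 biological replicates each. The other 3 libraries come from plants given iron at every transfer (+Fe), and their values are given as the level without deficiency. The small RNA libraries were made from total RNA of whole shoots, so a change in the cells that make up the shoot and a change of RNA per cell cannot be told apart.

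Plants short of iron raise a set of transcription factors, peptides, transporters and reductases that bring iron into the cell and move it through the phloem. At the same time they lower abundant iron proteins, such as ferredoxin and ferritin. Small RNAs of plants fall into size classes. RNAs of 21 and 22 nt include the miRNAs, RNAs of 24 nt guide DNA methylation, and shorter RNAs are often breakdown products of mRNA, rRNA and tRNA.

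The table held 33171 features, of which 33159 varied and were tested. Of those tested, 29053 are clusters (places where small RNAs gather on the genome), 314 are miRNA genes and 3792 are sequences that the table lists without a genome position. Of these sequences, 1187 have an exact place in TAIR10.1 all the same. Values are log2 normalized levels for both strands of a feature together, and the most abundant RNA of a feature is called its major RNA here. A feature is said to have risen or fallen when limma's test gave an adjusted p (Benjamini-Hochberg over all features) under 0.1 and a log2 change of at least 0.5 in size.

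After 24 hours of iron, 158 features were lower (0.476% of those tested) and 17 were higher (0.0513%) than in continued deficiency. The falls were 101 clusters, 4 miRNAs and 53 sequences, and the rises were 15 clusters and 2 sequences. In 170 of these 175 features (0.528% of those tested), the 3 Fe resupply libraries did not overlap the 3 -Fe libraries, against 16% of all features, and all Fe resupply libraries lay below all -Fe libraries in 8.7% of all features. Both counts moved when single libraries were left out, between 84 (without -Fe 3) and 342 (without Fe resupply 1) for the falls, and between 13 (without -Fe 3) and 33 (without Fe resupply 1) for the rises. Without Fe resupply 2 there were 88 falls and 31 rises, and without Fe resupply 3 and -Fe 1 there were 106 and 103 falls.

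RNAs of some of the features that changed are shown first. For clusters and miRNA genes, the value tested is that of the whole feature, not of the RNA shown. The first set are major RNAs of clusters at genes of the iron response, 5′ to 3′, with capitals only in the *COS* RNA, where they mark the base that differs from the genome. *COS* (*CAN OF SPINACH*) is the long non-coding RNA on chromosome 1 that the study named.
*COS*: agacuGugaaacugcgag
*IMA3*: uacaaauugguggccaag
*BTS*, 27 nt: aacgggugcugaaguucuucaaucuau
*OPT3*, 19 nt: gacggcucuuuggaccagg
*FRO3*, 21 nt: acgugagcucaacgaacgcuu
*FED A*: guugugucuggaucuguugauc

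The *COS* RNA, named for its cluster, has no exact match within that cluster. On TAIR10, it was placed at chr1:4662964-4662981 on the minus strand with the substitution C6G (genome base, position from the 5′ end, RNA base). That place is antisense to the coding sequence of AT1G13609 and on the strand of *COS*. Whether this RNA comes from *COS* or from another RNA was not tested. The other RNAs of this set match the coding sequence of their gene exactly and in sense, and have no other exact place in the genome. The *IMA3* RNA is at chr2:13108141-13108158, the *BTS* RNA at chr3:6277943-6277969, the *OPT3* RNA at chr4:9247938-9247956, the *FRO3* RNA at chr1:8150987-8151007 and the *FED A* RNA at chr1:22444871-22444892.

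The mature miRNAs of the 4 miRNA genes that fell are shown with the seed (bases 2 to 8) in capitals, read from TAIR10.1 at the positions of the RefSeq annotation. They were not tested by themselves, and whether they changed is not shown by the values of their genes.
miR395b: cUGAAGUGuuuggggggacuc
miR169d: uGAGCCAAggaugacuugccg
miR169e: uGAGCCAAggaugacuugccg
miR169f-5p: uGAGCCAAggaugacuugccg
miR169f-3p: gCAAGUUGaccuuggcucugc

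On TAIR10.1 these RNAs lie at chr1:9364540-9364560 (miR395b), chr1:20039556-20039576 (miR169d), chr1:20041586-20041606 (miR169e), chr3:4805799-4805819 (miR169f-5p) and chr3:4805713-4805733 (miR169f-3p), within their non-coding primary transcripts. miR169d, miR169e and miR169f-5p are the same RNA and share the seed GAGCCAA, so that reads of this arm cannot be given to 1 of these genes.

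Pieces of tRNAs made up most of the sequences that fell. In the next lines capitals mark the CCA end that is added to every mature tRNA, and the name gives the amino acid.
tRNA-Ser: uccugccguucacgCCA
tRNA-Pro: ucucggaacaccccCCA
tRNA-Gln: ucccgguagaaccuCCA
tRNA-Gly: cucccggcagacgcaCCA

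Longer pieces of tRNA-Pro carried 1 base that the tRNA gene does not have. Capitals mark that base here, and the substitutions are A1U, A2U, A3U and A4U (base of the tRNA, position from the 5′ end of the piece, base of the RNA).
tRNA-Pro with anticodon CGG, 19 nt: Uuucucggaacacccccca
tRNA-Pro with anticodon CGG, 20 nt: gUuucucggaacacccccca
tRNA-Pro with anticodon CGG, 21 nt: cgUuucucggaacacccccca
tRNA-Pro with anticodon TGG, 22 nt: ucgUuucucggaacgcccccca

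In each of these the substituted base is the 19th from the 3′ end of the mature tRNA.

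The 2 sequences that rose both come from the 5′ side of tRNA-Gly with anticodon TCC and lack 1 base of that tRNA.
tRNA-Gly, 25 nt: gcgucuguaguccaacgguaggaua
tRNA-Gly, 28 nt: gucuguaguccaacgguaggauaauugc

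Clusters at genes of the iron response fell after resupply. A list of 41 genes of iron regulation, transport, storage and iron proteins had 58 clusters at 22 of them. Of these, 14 fell (24.1%, against 0.348% of all clusters) and 1 rose, with a median log2 change of -0.20 against 0.00 over all features tested. The 14 falls lay at 7 of the 22 genes, and clusters of the same gene are not separate evidence. Clusters were given to genes by overlap alone, and some are led by an RNA of a neighbouring gene. An example is a cluster at *bHLH104* led by an RNA of AT4G14415. The regulators held 9 of the falls among 23 clusters, with a median of -0.50. Transport and chelation genes held the other 5 among 15 clusters, with a median of -0.32. Leaving out 1 library gave between 6 (without -Fe 2) and 18 (without -Fe 3) falls, with 8 without Fe resupply 3. The -Fe 2 library had the highest value of all 6 libraries in each of the 14 clusters.

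*BTS* encodes BRUTUS, an iron-binding ubiquitin ligase that holds back the deficiency response, and 4 of its 8 clusters fell. Its cluster led by the 27-nt RNA (chr3:6276884-6278118) had 4.43, 4.99 and 5.20 in the Fe resupply libraries, against 5.49, 6.30 and 5.67 in the -Fe libraries and 4.81, 4.79 and 4.97 in the +Fe libraries. All Fe resupply libraries lay below all -Fe libraries, and the log2 change was -0.95 (SE 0.18, adjusted p = 0.0144). The *BTS* cluster at chr3:6273964-6274808 had 4.27, 4.59 and 4.62 in Fe resupply, against 5.23, 5.60 and 5.16 in -Fe, a log2 change of -0.84 (SE 0.13, adjusted p = 0.00302). Changes at the remaining 2 that fell were -0.55 and -0.54, and both lost their call without Fe resupply 1 or without -Fe 2, the second also without Fe resupply 3 or without -Fe 1. The 4 *BTS* clusters that did not pass had log2 changes between -0.53 and -0.27.

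*IMA3* (AT2G30766) encodes a small peptide of the IRON MAN family, which switches the deficiency response on. Its cluster (chr2:13108007-13108522) had 4.45, 4.90 and 5.01 in Fe resupply, against 5.62, 6.24 and 5.58 in -Fe and 5.21, 4.86 and 5.12 in +Fe. The groups did not overlap, and the log2 change was -1.03 (SE 0.16, adjusted p = 0.00347). AT2G30760 is annotated on the opposite strand of the same place, and its RNAs are counted in the same value. *IMA1* (AT1G47400) and *IMA2* (AT1G47395) had 1 cluster each, at log2 changes of -0.50 and -0.48 with adjusted p of 0.0473 and 0.0727, just under the limit on the size of the change.

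*bHLH38*, *bHLH39*, *bHLH100* and *bHLH101* encode related transcription factors that switch on iron uptake genes. Clusters at the first 3 of them fell. The cluster at *bHLH39* (chr3:21086479-21087426) had 2.25, 2.31 and 2.21 in Fe resupply, against 2.63, 3.56 and 2.76 in -Fe and 2.28, 2.31 and 2.36 in +Fe, a log2 change of -0.72 (SE 0.15, adjusted p = 0.0299). Both *bHLH38* clusters changed by -0.72, and 1 of the 2 *bHLH100* clusters by -0.58. The -Fe 2 library stood highest at each of these clusters, and without it the *bHLH39* change was -0.43 and none of the 4 passed. Without Fe resupply 3 none of the 4 passed either, and without Fe resupply 2 the one at *bHLH39* passed and the others did not. The cluster levels are low, and no count of reads stands behind these values here. The 2 clusters at *bHLH101* had log2 changes of -0.14 and 0.22 and did not pass. The second of them also overlaps *GLU1*, and its major RNA lies in sense in the *GLU1* coding sequence.

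*OPT3* loads iron into the phloem, and 3 of its 4 clusters fell. The cluster at chr4:9246917-9248309, which also touches AT4G16360, had 4.48, 4.61 and 4.80 in Fe resupply, against 5.32, 6.12 and 5.33 in -Fe and 5.14, 4.58 and 5.10 in +Fe. The log2 change was -0.96 (SE 0.17, adjusted p = 0.0123), and the groups did not overlap. The other *OPT3* clusters that fell changed by -0.81, a call lost without Fe resupply 2, and by -0.53, a call lost without Fe resupply 1 or without -Fe 2. The *OPT3* cluster that did not pass had the highest level of them, and whether its RNAs come from *OPT3* was not tested. It had 8.53, 7.54 and 7.90 in Fe resupply, against 8.33, 8.57 and 8.46 in -Fe, a change of -0.46 (limma, adjusted p = 0.255). *FRO3* encodes a ferric chelate reductase of mitochondria. Its cluster at chr1:8150085-8151426 had 3.58, 3.72 and 3.65 in Fe resupply, against 4.57, 5.11 and 4.27 in -Fe, a log2 change of -1.0 (SE 0.14, adjusted p = 0.00224). The *FRO3* cluster at chr1:8151507-8151829 changed by -0.52, and the call was lost in 4 of the 14 alternatives (other fits, filters and scalings, and each library left out, at the same limits), among them without Fe resupply 1, without Fe resupply 3 and without -Fe 2.

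**Figure D1:**
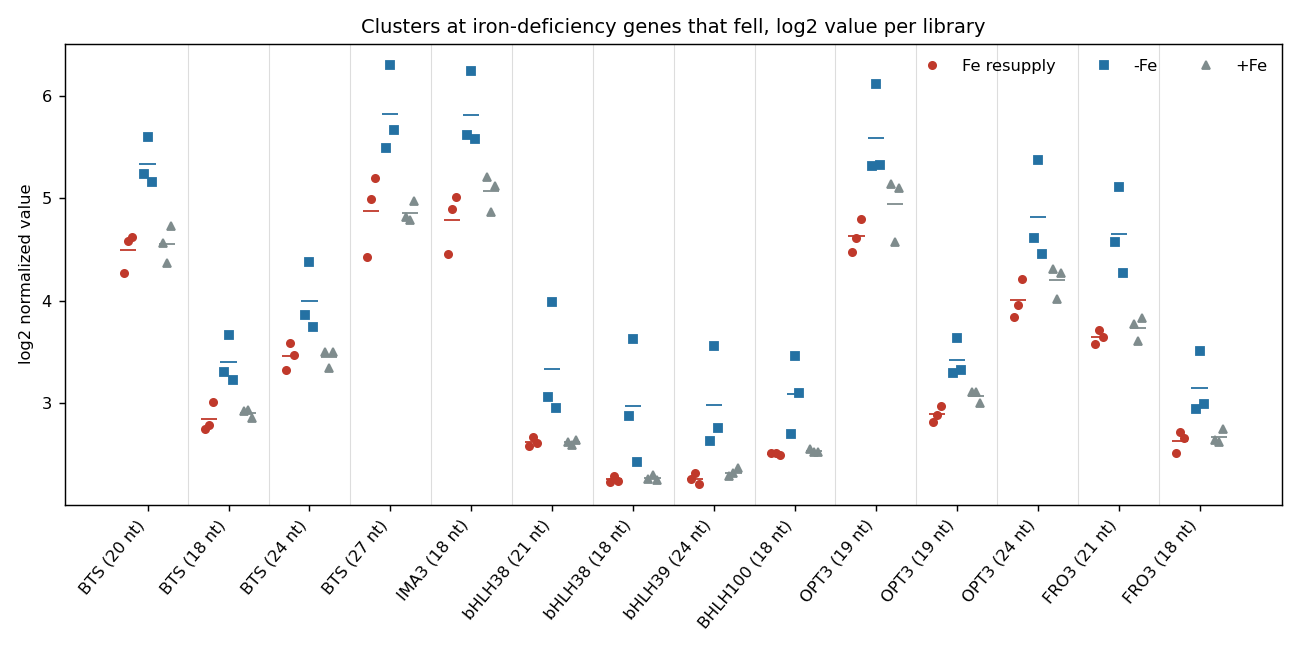
Log2 normalized value (vertical axis) of the 14 clusters at genes of the iron list that fell, with the length of the major RNA in nt in brackets. Points are libraries, with Fe resupply left, -Fe in the middle and +Fe right, and short lines are means of 3 libraries. The Fe resupply libraries lie below all -Fe libraries in each cluster, and -Fe 2 is the highest library of each.

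*ZIF1*, which carries nicotianamine into the vacuole, had 6 clusters with log2 changes between -0.39 and -0.19, none past the limits. *FER1*, the main leaf ferritin and an iron store, had 4 clusters with log2 changes between 0.28 and 0.46, none of which passed. At the *FER1* cluster with the largest difference, Fe resupply 1 stood at 3.73 while the other two were at 2.49 and 2.47, against 2.41, 2.42 and 2.48 in -Fe. Thus 1 library carried this difference. The superoxide dismutases and other iron proteins of the list had 16 clusters, none of which passed. The clusters at *CCS* and *FSD2* are led by RNAs placed in the neighbouring genes AT1G12510 and AT5G51090. The 4 at *FSD1*, the iron superoxide dismutase, had log2 changes between 0.03 and 0.23. In Fe resupply against +Fe these 4 differed by -0.92, -0.72, -0.94 and -0.33 (limma, adjusted p = 1.26e-05, 0.025, 1.1e-05 and 0.0832).

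The *COS* cluster showed the largest fall with groups that did not overlap. It spans chr1:4662142-4663467, across AT1G13608 and AT1G13609, and had 4.73, 4.58 and 4.74 in Fe resupply, against 5.55, 6.69 and 5.69 in -Fe and 4.88, 4.51 and 4.70 in +Fe. The log2 change was -1.29 (SE 0.19, adjusted p = 0.00268), and it was between -1.51 and -0.93 over 15 alternatives, all of which kept the call. The cluster counts both strands, so RNAs of *COS* and of the genes opposite to it cannot be told apart in its value. Cluster_2311, outside annotated genes at chr4:5851615-5851883, changed by -1.25 (SE 0.30, adjusted p = 0.0694) with groups that overlapped. Its Fe resupply values were 4.03, 3.94 and 5.86, against 5.82, 5.83 and 5.93 in -Fe.

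The other large falls were at genes of several kinds. Of the genes named below, *TCH3*, *SZF1*, AT2G14247, *CDI*, *ERF4* and *ERF6* are also on the study's list of transcripts raised by deficiency. *PHI-1* (AT1G35140), a cell wall protein gene first known from phosphate response, had 4.95, 4.45 and 5.29 in Fe resupply, against 5.89, 6.27 and 5.86 in -Fe, a log2 change of -1.11 (SE 0.16, adjusted p = 0.00249). *TCH4* (AT5G57560) encodes a cell wall xyloglucan enzyme induced by touch, and its cluster had 7.36, 6.59 and 7.75 in Fe resupply, against 8.21, 8.44 and 8.34 in -Fe. The change at *TCH4* was -1.10 (SE 0.18, adjusted p = 0.00678), and Fe resupply 2 was the lowest of the 6 libraries. *TCH3* (AT2G41100), a calmodulin-like gene also induced by touch, had 7.12, 6.67 and 7.21 in Fe resupply, against 7.98, 8.26 and 7.95 in -Fe, a change of -1.06 (SE 0.13, adjusted p = 0.000322).

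*SZF1* (AT3G55980) encodes a zinc finger protein of the salt response. Its cluster had 5.89, 5.50 and 5.90 in Fe resupply, against 6.73, 6.87 and 6.78 in -Fe, a change of -1.03 (SE 0.11, adjusted p = 0.000234). *BCB* (AT5G20230), a blue copper binding protein gene, had 4.35, 4.39 and 4.75 in Fe resupply, against 5.44, 5.48 and 5.49 in -Fe, with a change of -0.97 (SE 0.11, adjusted p = 0.000322). At *SZF1* and *BCB* the -Fe libraries stood close together, unlike at the iron genes, where -Fe 2 stood above the other two. Clusters at AT2G14247, *CDI* and *PUP18*, a putative purine permease gene, completed the 12 largest falls, with changes of -1.17, -1.07 and -0.96. At the limits used here, the calls at all 12 were kept in every other fit, filter or scaling run for them and without each library. Among the other falls at protein-coding genes were the kinase genes *MPK3* (-0.66 and -0.63) and *CPK32* (-0.50), the calmodulin-like gene *TCH2* (-0.64) and the transcription factor genes *ERF4* (-0.52) and *ERF6* (-0.50), which were picked after their values were seen.

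**Figure D2:**
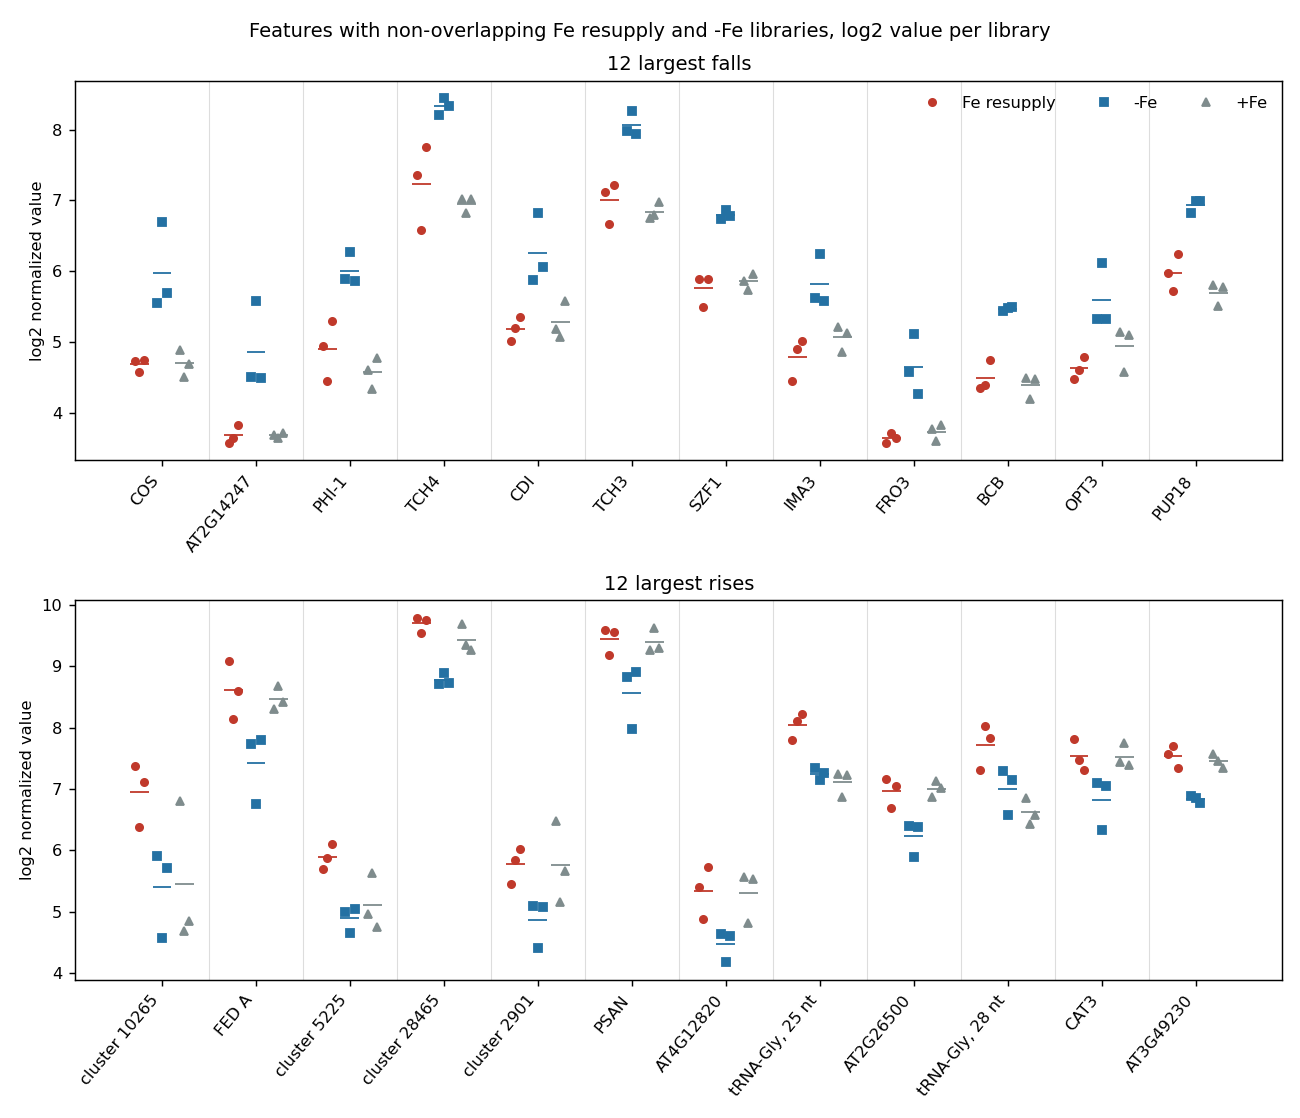
Log2 normalized value (vertical axes) of the 12 largest falls (top) and the 12 largest rises (bottom) among features whose Fe resupply and -Fe libraries do not overlap. Points are libraries, with Fe resupply left, -Fe in the middle and +Fe right, and short lines are means of 3 libraries. The +Fe libraries lie nearer to Fe resupply than to -Fe at *COS* and *TCH4*, and nearer to -Fe at the tRNA-Gly pieces.

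The falling clusters lay mainly at protein-coding genes. Of 101, 85 overlapped a protein-coding gene and 5 lay outside annotated genes, and the major RNA of 63 was placed in sense within a coding sequence. For 17 of the falling clusters the major RNA was placed antisense in a gene. Among the 8090 clusters at 1 protein-coding gene alone whose major RNA matches exactly in sense, 52 fell (0.643%), against 0.348% of all clusters. The major RNAs of 24 falling clusters differ from their cluster by 1 substitution, and those of 16 are 3′ pieces of tRNAs. Overlap with a gene thus does not show that the RNA came from it. Of all 29053 clusters, 12585 overlapped a protein-coding gene, and these had a median change of -0.033 with 85 falls and 10 rises. Clusters outside genes numbered 10190, with a median of 0.042, 5 falls and 5 rises. A fall of RNAs in sense to a transcript and a fall of the transcript itself cannot be told apart in these data.

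Genes whose transcripts changed in deficient shoots were looked at as lists of 145 raised and 83 lowered genes. The lists come from the study's RNA-seq under the same growth conditions and are thus not independent evidence of direction. Clusters lay at 67 of the 145 raised genes. Of these 130 clusters 34 fell (26.2%, against 0.348% of all clusters) and none rose, with a median change of -0.27. The 34 falls lay at 24 of the 67 genes. Leaving out 1 library gave between 16 (without -Fe 2) and 34 falls (without -Fe 1). Besides the iron list, these falls included 3 clusters of *ORG1* and 2 of *CGLD27*, a chloroplast protein gene, both picked after their values were seen. At *CGLD27* the cluster at chr5:26878966-26879510 had 4.13, 4.09 and 4.00 in Fe resupply, against 4.60, 5.15 and 4.60 in -Fe, a change of -0.71 (SE 0.13, adjusted p = 0.0123). The 83 lowered genes had 59 clusters at 38 genes, of which 3 rose (5.08%, against 0.0516% of all clusters) and none fell, with a median of 0.18.

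Summed over clusters, the raised genes held 3230, 2984 and 3260 units (back-transformed normalized values) in Fe resupply, against 3767, 4506 and 3888 in -Fe and a mean of 3142 in +Fe. The groups did not overlap, and the log2 difference was -0.36 with p = 0.1 in a two-sided exact permutation test, the smallest that 3 against 3 libraries can give (0.3 adjusted over 3 lists). The lowered genes held 15562, 26973 and 17033 units in Fe resupply, against 23076, 23272 and 21236 in -Fe and a mean of 61506 in +Fe. This log2 difference of -0.22 has the opposite sign to the median of their clusters, and the groups overlapped (p = 0.4, exact permutation test). The sum over the iron list, which includes abundant clusters such as that at *FED A* and *IRT3*, differed by -0.036 and overlapped (p = 0.9, exact permutation test).

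The rises included photosynthesis genes. The cluster with the second largest rise (chr1:22444452-22445682) is led by an RNA of *FED A* (AT1G60950), a leaf ferredoxin, whose iron-sulfur centre carries electrons from photosystem I. It also touches the neighbouring transporter gene *IRT3*, for which it was counted in the iron list. It had 9.08, 8.14 and 8.59 in Fe resupply, against 7.74, 6.76 and 7.80 in -Fe and 8.31, 8.68 and 8.41 in +Fe. The change was 1.18 (SE 0.22, adjusted p = 0.0144), without overlap, and the call was kept in all 16 alternatives, with values between 0.84 and 1.41. In both groups replicate 2 was the lowest library.

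*PSAN* and *PSAF* encode subunits of photosystem I. The *PSAN* cluster had 9.59, 9.18 and 9.55 in Fe resupply, against 8.83, 7.97 and 8.90 in -Fe, a change of 0.88 (SE 0.18, adjusted p = 0.0264) that was lost without Fe resupply 3. At *PSAF*, named after its values were seen, they were 9.66, 9.12 and 9.52 in Fe resupply, against 8.94, 8.33 and 8.99 in -Fe, a change of 0.68 (SE 0.15, adjusted p = 0.0425). AT2G26500, a gene for a small subunit of the cytochrome complex of thylakoids, had 7.17, 6.70 and 7.04 in Fe resupply, against 6.40, 5.90 and 6.39 in -Fe, a change of 0.74 (SE 0.13, adjusted p = 0.0132). *CAT3* encodes catalase, a haem enzyme, and its cluster, which also touches *CAT1*, changed by 0.71 (SE 0.16, adjusted p = 0.0533), a call lost without Fe resupply 1, without Fe resupply 2 and without -Fe 2. In each of these clusters -Fe 2 was the lowest library.

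Clusters led by 24-nt RNAs made up 9 of the 15 rising clusters, or 0.0617% of the 14590 such clusters, near the 0.0516% of all clusters. The count was 15 without Fe resupply 1, 6 without -Fe 1 and 4 without -Fe 3. The largest rise, Cluster_10265 outside annotated genes at chr3:1165851-1166255, had 7.37, 6.39 and 7.11 in Fe resupply, against 5.91, 4.57 and 5.72 in -Fe and 6.80, 4.69 and 4.85 in +Fe. Its change of 1.56 (SE 0.39, adjusted p = 0.0781) lost the call in 8 of 16 alternatives, among them without any single library other than Fe resupply 2. Cluster_5225 (chr2:1178611-1179356), also outside genes, had 5.71, 5.87 and 6.10 in Fe resupply, against 5.0, 4.66 and 5.05 in -Fe, a change of 0.99 (SE 0.16, adjusted p = 0.00702) kept in all 15 alternatives. Cluster_28465, led by a 23-nt RNA at AT1G70475 (chr1:26561122-26561551), had the smallest adjusted p of the rises. It had 9.79, 9.54 and 9.75 in Fe resupply, against 8.71, 8.88 and 8.72 in -Fe, a change of 0.92 (SE 0.11, adjusted p = 0.000322). In contrast, 24-nt clusters at AT4G13220 (Cluster_2901) and AT4G12820 changed by 0.91 and 0.87 and lost their calls in 7 and 3 of 15 alternatives. The first of them lost it without any single library other than Fe resupply 1, and the second without Fe resupply 3, -Fe 2 or -Fe 3. The one at AT3G49230 rose by 0.69 and kept its call in all 16.

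From 17 to 24 nt, longer major RNAs had higher median changes, while clusters with longer ones did not follow this order. The median log2 change of clusters was -0.075 at 17 nt, -0.066 at 18 nt, -0.059 at 19 nt, -0.049 at 20 nt, -0.026 at 21 nt, -0.0055 at 22 nt, 0.025 at 23 nt and 0.038 at 24 nt. Over 24 nt it was -0.045, with 9 falls and 2 rises among 1829 clusters. These shifts are small, and no test was made of them. At 17 nt, 72.5% of 1964 clusters were lower in Fe resupply, and at 24 nt 34.9% of 14590. The falls were concentrated in the same classes, with 62 of the 101 at 17 to 20 nt among 5366 clusters (1.16%) and 10 at 24 nt (0.0685%). Of all clusters, 0.348% fell. Without Fe resupply 1 the falls at 17 to 20 nt numbered 127, without Fe resupply 2 they numbered 32 and without -Fe 3 they numbered 39.

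The libraries differed in this pattern. The median difference of 17-nt clusters from the -Fe mean was -0.023, -0.123 and -0.083 in Fe resupply 1, 2 and 3, against -0.012, 0.0065 and 0.0052 in the -Fe libraries and -0.032, -0.052 and -0.026 in the +Fe libraries. Fe resupply 1 thus stood nearest of its group to the -Fe libraries, at a level close to +Fe 3, and Fe resupply 2 stood farthest from the -Fe libraries. The sequences listed without a position had medians of -0.21 at 17 nt, -0.18 at 18 nt, -0.11 at 20 nt, -0.051 at 22 nt and 0.0061 at 24 nt, with -0.0030 over 24 nt.

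**Figure D3:**
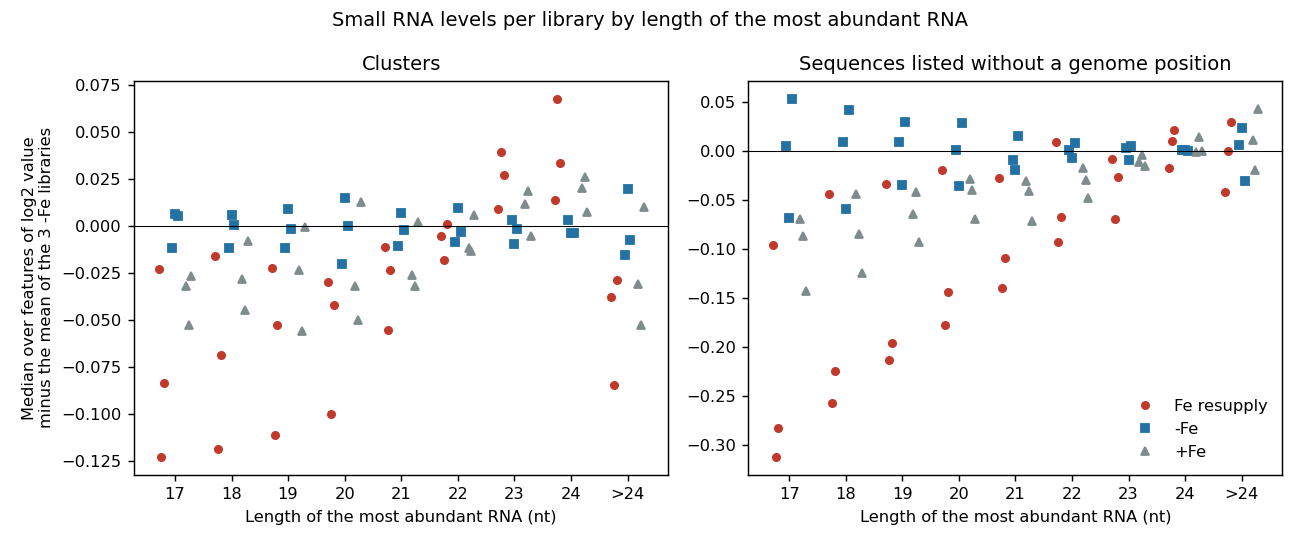
Median over features of the log2 value minus the mean of the 3 -Fe libraries (vertical axes), by length of the major RNA in nt (horizontal axes), for clusters (left) and sequences listed without a genome position (right). Points are libraries, with Fe resupply left, -Fe in the middle and +Fe right within each length. Fe resupply 2 lies at -0.123 for clusters of 17 nt and above the -Fe libraries at 24 nt.

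By summed level, the sequences listed without a genome position held 159517, 134368 and 142892 units in Fe resupply, against 168213, 165006 and 175257 in -Fe. The groups did not overlap, and the log2 difference of -0.22 gave p = 0.1 in a two-sided exact permutation test (0.3 after adjustment over the 3 kinds of feature). Sums of clusters led by 24-nt RNAs were 925663, 981968 and 948689 in Fe resupply, against 918494, 910318 and 915841 in -Fe, a log2 difference of 0.057 with p = 0.1 in the exact permutation test (0.386 adjusted over 9 length classes). It was the only length class whose groups did not overlap. For shorter major RNAs the sums overlapped, with log2 differences of -0.19 at 17 nt (p = 0.2), -0.12 at 18 nt (p = 0.2), -0.20 at 19 nt (p = 0.3) and -0.071 at 20 nt (p = 0.5, exact permutation tests). miRNAs as a whole held 242480, 241751 and 230471 units in Fe resupply, against 237787, 231734 and 238021 in -Fe, and overlapped (p = 0.6, exact permutation test). Clusters as a whole overlapped too, with a log2 difference of -0.080 (p = 0.3, exact permutation test). The 10 features of highest mean took 70.1% to 73.4% of the sum in Fe resupply and 73.0% to 73.6% in -Fe.

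Pieces of tRNAs moved with the short RNAs. These groups were chosen after their values were seen. Of the 3792 sequences, 998 match the 3′ end of a tRNA with at most 1 substitution. Of these, 42 fell (4.21%) and none rose, with a median change of -0.16. Falls were 1.4% of all sequences and 0.476% of all features. Among all 1284 sequences of 17 to 20 nt, tRNA pieces included, 3.12% fell and the median was -0.16. Length and tRNA origin were not separated here. The 2626 sequences with no tRNA match had a median of -0.039, with 8 falls. The count of falls depended on single libraries, since it was 123 without Fe resupply 1, 38 without -Fe 2, 11 without -Fe 1, 10 without Fe resupply 2, 5 without Fe resupply 3 and 3 without -Fe 3.

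The tRNA-Ser piece had 9.81, 9.41 and 9.58 in Fe resupply, against 10.08, 10.12 and 10.64 in -Fe and 10.12, 9.85 and 9.91 in +Fe, a log2 change of -0.68 (SE 0.13, adjusted p = 0.0182). The 19-nt tRNA-Pro piece with the substitution A1U had 7.23, 6.80 and 6.64 in Fe resupply, against 7.56, 7.50 and 7.67 in -Fe and 7.20, 7.24 and 7.26 in +Fe, a change of -0.69 (SE 0.12, adjusted p = 0.0093). In both, Fe resupply 1 was the library of its group nearest to -Fe. Pieces of nuclear tRNA-Pro made up 15 of the 42, out of 100 measured, those of tRNA-Gln 6 out of 96 and those of tRNA-Glu 5 out of 37.

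Pieces of nuclear tRNAs gave 38 of the 42 falls among 559 sequences (6.8%), with a median change of -0.21. Plastid tRNAs gave 4 among 322, with a median of -0.12. An example from the plastid is a 17-nt piece of tRNA-Phe, aucugguucuuggcacc, which had 6.48, 6.04 and 6.22 in Fe resupply, against 6.80, 6.81 and 6.94 in -Fe, a change of -0.61 (SE 0.11, adjusted p = 0.0123). The shortest 3′ pieces had the lowest medians, -0.27 at 17 to 18 nt and -0.19 at 19 to 20 nt, against -0.027 over 24 nt.

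Of the 998 pieces of 3′ ends, 396 carry 1 substitution, and in 222 of them it is at base 19 from the 3′ end. Among the 42 that fell, 25 carry a substitution, 24 of them at this base as an A-to-U change. This base lies in the T loop, where many tRNAs carry a methylated adenosine (m1A) that reverse transcriptase misreads. Whether the share of methylated tRNA differed was not tested. The pieces with this substitution had a median change of -0.23, and those matching exactly with the CCA end had -0.13.

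Pieces of the 5′ sides of tRNAs varied by kind. Of 122 sequences from the 5′ end, 3 fell and 1 rose, with a median of -0.030. The 49 that lack 1 base of the tRNA had a median of 0.047, the 56 with 1 substitution had -0.14 and the 17 exact ones had -0.078. The 25-nt piece of tRNA-Gly had 7.79, 8.11 and 8.22 in Fe resupply, against 7.33, 7.15 and 7.26 in -Fe and 7.25, 6.87 and 7.24 in +Fe, a change of 0.79 (SE 0.12, adjusted p = 0.00302) kept in all 16 alternatives. Fe resupply also lay above +Fe, by 0.92 (adjusted p = 0.000387). The 28-nt piece had 7.32, 8.03 and 7.83 in Fe resupply, against 7.30, 6.57 and 7.15 in -Fe, a change of 0.72 (SE 0.17, adjusted p = 0.0633) that lost its call without Fe resupply 2, Fe resupply 3, -Fe 2 or -Fe 3.

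**Figure D4:**
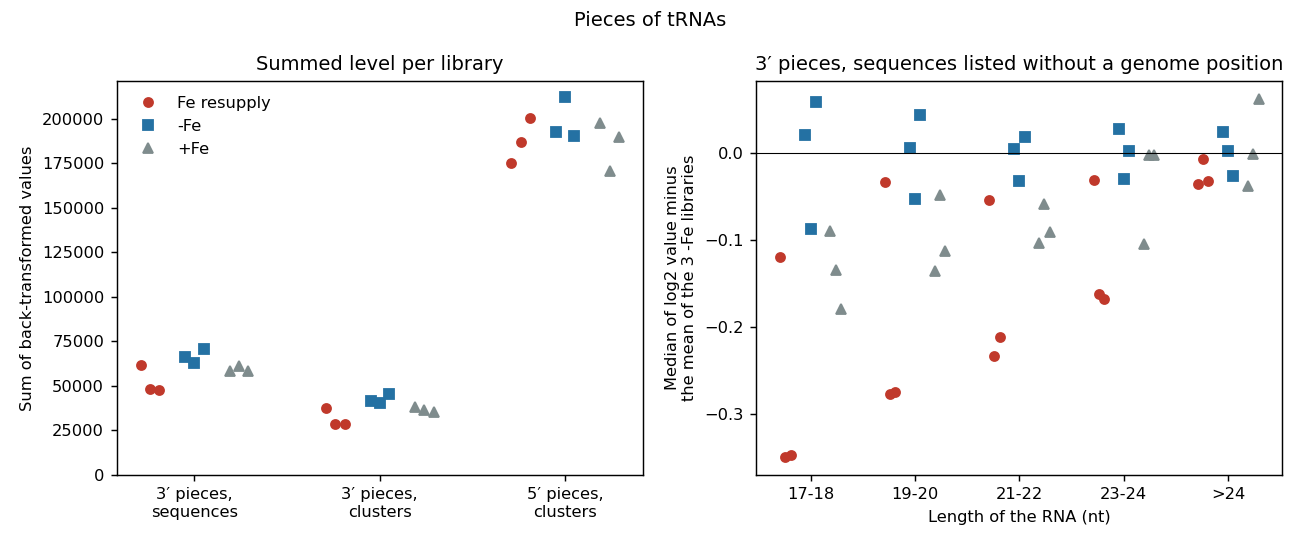
Pieces of tRNAs by library, with Fe resupply left, -Fe in the middle and +Fe right within each class. The left panel shows summed back-transformed values of 3′ and 5′ pieces, and the right panel the median over 3′ pieces of the log2 value minus the mean of the 3 -Fe libraries, by length in nt. Among 3′ pieces of 17 to 24 nt, Fe resupply 1 is the Fe resupply library nearest to the -Fe libraries.

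Summed over the 998 sequences, 3′ pieces held 61673, 48288 and 47783 units in Fe resupply, against 66053, 62628 and 70433 in -Fe and a mean of 59173 in +Fe. The log2 difference of -0.34 gave p = 0.1 (two-sided exact permutation test, 0.15 adjusted over 3 sums). The group was chosen after its values were seen, and neither value accounts for that choice. A further 210 clusters are led by a 3′ piece of a tRNA, and 16 of these fell, against 0.348% of all clusters, with a median of -0.16. The 281 clusters led by a 5′ piece had none that passed and a median of -0.13. Clusters led by RNAs of 17 to 20 nt that are no tRNA piece still had a median of -0.060 and 46 falls among 5045.

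Among the 8 falling sequences with no tRNA match, the one with the largest change, uccucguguugcauccc, has 229 exact places in TAIR10.1. The kind of RNA that this sequence comes from was not determined here. It had 6.22, 5.93 and 5.69 in Fe resupply, against 6.66, 6.42 and 6.93 in -Fe, a change of -0.72 (SE 0.13, adjusted p = 0.0144).

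Among loci of structural RNAs, 424 clusters overlapped tRNA genes, with 9 falls (2.12%, against 0.348% of all clusters) and a median of -0.15. None passed among 7 at rRNA genes (median -0.11), 141 at snoRNA genes (-0.038), 40 at snRNA genes (-0.058), 144 of the mitochondrial genome (-0.034) and 12 of the plastid genome (0.010). Their part in the results above was not tested. Only clusters are counted here, so fragments of structural RNAs among the sequences without a genome position are not covered.

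miRNAs changed little as a class, with a median of 0.017 over 314 and 4 falls, all of which kept their direction in each alternative. miR395 limits sulfate assimilation enzymes and a sulfate transporter. *MIR395b* had 4.38, 4.61 and 4.07 in Fe resupply, against 5.10, 5.46 and 4.82 in -Fe and 4.69, 4.64 and 4.71 in +Fe, a change of -0.78 (SE 0.14, adjusted p = 0.0123). The 5 other miR395 genes had changes between -0.44 and 0.00 and did not pass.

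miR169 limits NF-YA transcription factors. Of its 13 genes, 3 fell, with a family median of -0.081. *MIR169e* had 6.92, 7.03 and 6.62 in Fe resupply, against 7.43, 7.65 and 7.59 in -Fe and 7.38, 7.21 and 7.23 in +Fe, a change of -0.70 (SE 0.11, adjusted p = 0.00451). *MIR169d* had 7.22, 7.30 and 6.91 in Fe resupply, against 7.69, 7.94 and 7.80 in -Fe, a change of -0.67 (SE 0.12, adjusted p = 0.0093). *MIR169f* had 6.82, 6.77 and 6.74 in Fe resupply, against 7.31, 7.47 and 7.44 in -Fe, a change of -0.63 (SE 0.12, adjusted p = 0.0182) lost without -Fe 3. In none of these did the groups overlap. *MIR169g*, which did not pass, stood at -0.54 (SE 0.15) with an adjusted p of 0.122.

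The 4 miRNA genes are also counted as clusters, with the same change to within 0.000142. At the cluster of *MIR169f* the major RNA is the 3p arm shown above, not the mature 5p arm. The RNAs leading the other three clusters are likewise not the mature miRNA.
*MIR395b* cluster, chr1:9364469-9364647: guucccuuuaacgcuucauu
*MIR169d* cluster, chr1:20039478-20039598: gcaaguugaccuuggcucugu
*MIR169e* cluster, chr1:20041516-20041734: gcaaguugacuuuggcucugu
*MIR169f* cluster, chr3:4805692-4805840: gcaaguugaccuuggcucugc

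Copper miRNAs cut mRNAs of copper proteins such as plantacyanin, laccases and copper superoxide dismutases. None of the 7 passed against -Fe, with a median change of -0.29. The following pair was picked after its values were seen. *MIR408* had 9.59, 9.92 and 9.72 in Fe resupply, against 10.15, 9.99 and 9.96 in -Fe and 11.43, 11.60 and 11.60 in +Fe. The change against -Fe was -0.29 (SE 0.10, adjusted p = 0.247), while Fe resupply lay 1.80 on the log2 scale below +Fe (adjusted p = 8.07e-10). *MIR398b* had 12.41, 13.45 and 12.63 in Fe resupply, against 13.16, 13.22 and 13.03 in -Fe and 14.77, 14.58 and 14.74 in +Fe. Here Fe resupply 2 stood above the -Fe libraries and the others below them.

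The other lists held no miRNA that passed. Their medians were 0.0059 for phosphate miRNAs (9 genes), 0.026 for miR156 and miR157 (14 genes), 0.079 for miR172 (5 genes), -0.081 for miR165 and miR166 (9 genes) and 0.13 for miR159 (3 genes). The 9 genes of miR165 and miR166 were all lower in Fe resupply, by 0.15 or less in size.

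**Figure D5:**
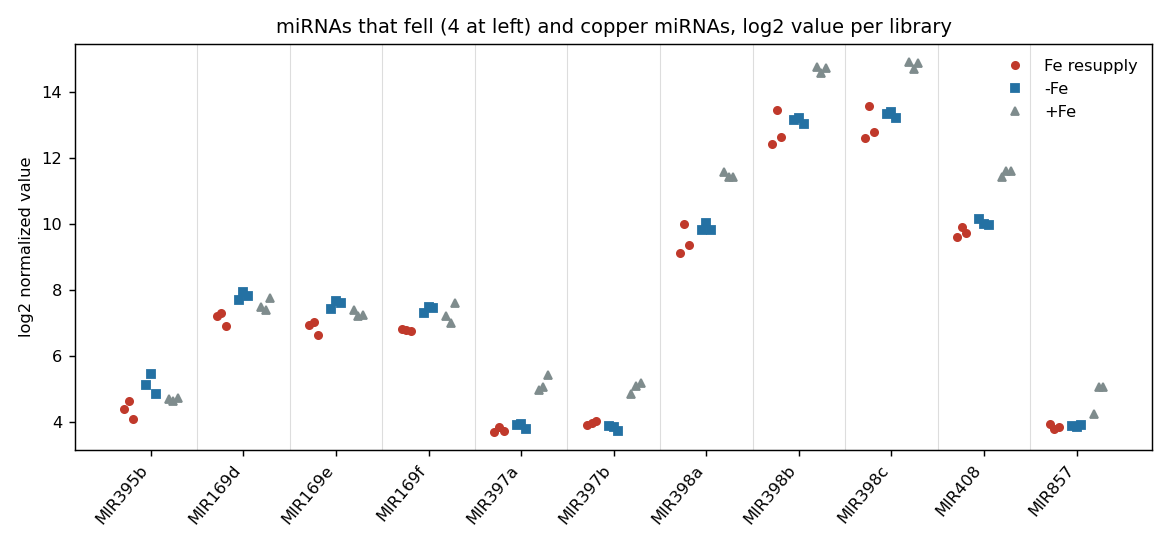
Log2 normalized value (vertical axis) of the 4 miRNA genes that fell (left) and the 7 copper miRNA genes. Points are libraries, with Fe resupply left, -Fe in the middle and +Fe right within each gene. The 4 at left show Fe resupply below all -Fe libraries, and *MIR408* shows Fe resupply and -Fe between 9.59 and 10.15, below +Fe at 11.43 to 11.60.

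Against the +Fe libraries, the Fe resupply mean of the 158 falls was within 0.25 of the +Fe mean in 91 and below it in 131. The falls were chosen for values lower than in -Fe in the same Fe resupply libraries, so these counts are a description.

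Leaf miRNAs were present in all 6 libraries. The highest genes of miR156, miR159, miR165, miR166, miR168, miR319 and miR396 had values between 10.63 and 14.67 in Fe resupply and between 10.63 and 14.49 in -Fe. Clusters of the plastid genome held 19.2% to 21.2% of the summed values in Fe resupply and 19.3% to 20.8% in -Fe. On the first principal component (22.3% of the variance), the Fe resupply libraries lay at -0.040, 0.62 and 0.27 and the -Fe libraries between -0.44 and -0.38. The +Fe libraries lay at 0.020, 0.17 and 0.16. Fe resupply 1 was thus the nearest of its group to -Fe, but it lay nearer to the +Fe libraries than to the -Fe libraries. Fe resupply 2 also had the lowest summed value, 8503750 units against 9176480 to 9831400 in the 5 other Fe resupply and -Fe libraries.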

How the data were processed

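Small RNA libraries were made from shoots with 3 biological replicates per condition. Adapters were removed with Cutadapt, and ShortStack found and counted loci of 17 to 29 nt on TAIR10 (versions not given in the sources used here). The deposited file holds log2 normalized counts per feature, and the authors' transformation is not named. Whether it understates changes of low features was not tested. Raw counts were not used here, the depth is unknown, and no detection limit was computed.

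Of 33171 features, 12 constant ones were left out. Fe resupply was compared with -Fe in limma 3.58.1 (R 4.3.3), fitted over all 9 libraries with a trend in eBayes and Benjamini-Hochberg adjustment. The limits (FDR under 0.1, log2 change of at least 0.5) are those of the study. The limma step was also run on simulated data in which the changes were larger than most of those reported here. Its behaviour near the limits was not tested. Sums of back-transformed values were compared with exact permutation tests (scipy 1.17.1).

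Clusters were given to genes of TAIR10.1 (RefSeq) on overlap of at least 1 nt on either strand, and 91.3% of 28897 nuclear clusters contain their major RNA exactly. The major RNAs of 24 falling clusters differ from their cluster by 1 substitution. *COS* was placed by the study's primers (chr1:4661359-4663464). The tRNA pieces were matched to 684 annotated tRNAs with CCA added. Names of *IMA* genes follow common use.

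Named features are the 12 largest falls and 12 largest rises without overlap between groups, every miRNA that passed, *COS*, passed clusters at the iron list, and the largest change of each row type and length. Gene and miRNA lists and groups were chosen with earlier results of these data known. Same-numbered libraries were not paired, since the correlations of their deviations were 0.025, 0.090 and 0.035. Alternatives were low-value filters, an added constant, centring, quantile normalization, the 6 libraries alone, eBayes without a trend, other limits, a replicate block and leaving out each library.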

Additional observations from a re-analysis of the deposited data

How the results depend on the processing

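At the limits used here (other limits were applied to counts alone), 23 of 39 named features kept their call under every other fit, filter and scaling and without each library, and none changed direction. Of these 591 values, 535 kept the call. Falls numbered 158 and rises 17 in the comparison as reported. Falls were 87 among features whose mean level was 50 or more after back-transformation, 325 without a limit on the change and 10 at a log2 change of at least 1. Rises were 11 at an FDR under 0.05, 46 without a limit on the change and 2 at a log2 change of at least 1. With the replicate block, rises were 31 and falls 181, all 175 features kept their call and 37 more passed. The numbers do not mark a shared batch in the labels, and no pair's deviations correlated by over 0.1. Leaving out each library gave 84 to 342 falls and 13 to 33 rises.

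Falling clusters at the iron list were 14, and were 7 and 0 at mean levels of 10 and 50, 2 at a log2 change of at least 1, and 6 to 18 without each library. At transcripts raised by deficiency they were 34, and were 3 at mean levels of 50, 7 at a log2 change of at least 1 and 16 to 34 without each library. These clusters are of low abundance.

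Medians moved as follows. For all clusters (0.009) they were 0.021 and 0.047 at mean levels of 10 and 50, 0.026 with centring and 0.016 with quantile normalization. For miRNAs (0.017) they were 0.042 at 50, 0.034 with centring and 0.00811 to 0.020 without each library. For sequences (-0.065) they were -0.11 at 10 and -0.21 at 50. At 50 they were also -0.17 for clusters of 17 nt and 0.064 for clusters of 24 nt. For 3′ tRNA pieces, a group added after the data were seen, they were -0.24 at 10 and -0.34 at 50. Without the 10 features of highest mean, the log2 difference of summed values was 0.0013 for clusters and -0.23 for clusters of 18 nt. The cause of these moves was not tested.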
